A study of Mus musculus with 7 samples.

Results

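The genes described here are 9 transcription factors and regulators on the output side of the circadian clock: Dbp, Tef, Hlf and Nfil3 of the bZIP class, the nuclear receptors Nr1d1, Nr1d2, Rora and Rorb, and the repressor Ciart. They were taken by symbol from a table of 54309 genes, each symbol matched 1 row, and 7 of the 9 had a mean of 1 TPM or more, the level needed for testing, which 14800 genes had in all. TPM is transcript abundance divided by transcript length and scaled to the same sum in every library. RNA was sequenced from neuron-enriched cells of lumbar dorsal root ganglia (L4-6), the sensory ganglia beside the spinal cord, 72 h after an injury of the sciatic nerve. The animals were male C57bl/6 mice of 6-8 weeks per the labels, injured and dissected either at ZT8 (3 libraries), in the light phase, or at ZT20 (4 libraries), in the dark phase, where ZT gives the hours since lights on. No uninjured ganglia were analysed here, so both groups carry the injury, and the time of injury and the time of dissection cannot be told apart. The ganglia were dissociated with enzymes and passed over an albumin gradient before lysis. The labels do not say whether a library came from 1 mouse or from pooled mice, so p-values measure only the spread between these libraries. Library identifiers were numbers at ZT20 and letters at ZT8, so a batch behind those names and the group cannot be told apart.

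In the mammalian clock the activators BMAL1 (gene Arntl) and CLOCK bind E-box elements and switch on the Per and Cry repressors together with a layer of output factors. Dbp, Tef and Hlf encode the PAR-bZIP activators, which bind D-box elements, and Nfil3 encodes the repressor that competes for the same elements. Nr1d1 and Nr1d2 encode the REV-ERB repressors, which compete with the ROR activators for RORE elements in Arntl and other genes. Ciart encodes a repressor of BMAL1 and CLOCK. In many mouse tissues Dbp, Nr1d1 and Ciart transcripts are known to rise in the day and to be low in the night, while Arntl peaks near the end of the night.

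Promoter sequence from RefSeq (GRCm38.p6) was found for all 9 genes, in 11 windows of 300 bases that run from 250 bases before to 50 bases after an annotated start. The windows were searched on both strands for the E-box CACGTG, the E-box-like CACGTT, the D-box TTATGNAA, the receptor half-site AGGTCA and the RORE, which is that half-site with an A and a T at fixed places before it, so that every RORE match is also a half-site match. The 4 stretches of 250 bases before the start shown here belong to Dbp, Nr1d1 and Ciart, the tested members whose ZT20 mean was the lower one by the most, and to Tef, the relative of Dbp whose groups overlapped. Matches are in capitals, every sequence runs 5′ to 3′ on the strand of its gene, and the last line is a site of 30 bases in Arntl, the gene on which REV-ERB and ROR factors compete. The positions are chr7:45704997-45705246, plus strand, for Dbp, chr3:95882229-95882478, minus strand, for Ciart, chr11:98775378-98775627, minus strand, for Nr1d1, chr15:81811164-81811413, plus strand, for the second Tef window, and chr7:113207528-113207557, plus strand, for Arntl.
Dbp: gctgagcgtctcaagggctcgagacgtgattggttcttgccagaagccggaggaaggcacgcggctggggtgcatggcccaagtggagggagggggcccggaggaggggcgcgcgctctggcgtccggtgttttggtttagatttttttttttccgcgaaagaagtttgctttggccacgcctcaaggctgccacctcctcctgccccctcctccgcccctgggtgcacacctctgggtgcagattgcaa
Ciart: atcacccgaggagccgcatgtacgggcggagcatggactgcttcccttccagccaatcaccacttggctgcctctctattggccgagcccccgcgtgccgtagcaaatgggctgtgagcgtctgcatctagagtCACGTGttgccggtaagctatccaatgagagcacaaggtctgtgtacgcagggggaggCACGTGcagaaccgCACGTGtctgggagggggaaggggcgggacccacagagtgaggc
Nr1d1: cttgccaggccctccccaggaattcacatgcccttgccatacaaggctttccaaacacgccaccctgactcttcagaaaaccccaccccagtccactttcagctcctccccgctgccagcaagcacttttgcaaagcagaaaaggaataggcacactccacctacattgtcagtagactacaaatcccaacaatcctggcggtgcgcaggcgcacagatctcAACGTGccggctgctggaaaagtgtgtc
Tef: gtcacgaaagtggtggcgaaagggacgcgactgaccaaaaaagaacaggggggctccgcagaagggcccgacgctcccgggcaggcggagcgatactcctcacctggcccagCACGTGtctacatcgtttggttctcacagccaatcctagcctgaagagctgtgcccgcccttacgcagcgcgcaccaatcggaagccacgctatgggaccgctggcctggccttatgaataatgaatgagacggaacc
Arntl: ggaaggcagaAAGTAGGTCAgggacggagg

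Ciart held 3 E-boxes, with their first bases at −116, −58 and −44 from the start, and each of the 2 Tef windows held 1. CACGTG occurred in 7.15% of the 32851 windows of the same length in the table. Nr1d1 held an E-box-like match on the opposite strand at −28 and Rorb held 1 at −234, and CACGTT occurred in 4.68% of windows. The Dbp window held no match to any of the 5 motifs. That says only that these letters are absent there; E-boxes of Dbp are also known within the gene, outside this window. Half-sites occurred in the windows of Nfil3 and Nr1d2 (16.3% of all windows had 1), no member window matched the D-box (3.38% of windows) or the RORE (0.7% of windows), and the Arntl RORE began 28 bases after an annotated start.

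Before the results, 4 libraries have to be named. ZT8 replicate 2 stood apart from the others: 18297 genes were above 0 TPM in it, against 22541 to 25238 elsewhere, and 749 of the tested genes were at 0, against 104 to 186. ZT20 replicates 3 and 4 went against their male label, since the sum of 4 Y-linked genes was 0.0162 and 0.00868 TPM there and at least 33.1 TPM in every other library. Xist, the transcript of the inactive X chromosome, reached 1.08 TPM in ZT20 replicate 2, 2.21 TPM in replicate 3 and 2.30 TPM in replicate 4, and was at or below 0.00467 TPM elsewhere, so ZT20 replicate 2 carried both kinds of transcript. The 10 neuronal markers (such as Tubb3, Snap25 and Scn9a) summed to 17700 to 22770 TPM at ZT20 and 13890 to 21110 TPM at ZT8, and none of them was at 0 in all libraries. Of these 10, 2 were called, Elavl4 and Scn9a, both higher at ZT20 without overlap. Their log2 differences were 1.08 and 0.90 (limma adjusted p = 0.00735 and 0.0107). The 6 satellite glia markers summed to 6966 to 8439 TPM at ZT20 and 11770 to 14460 TPM at ZT8, and most of that sum was Apoe (6261 to 7615 TPM and 10620 to 13560 TPM). Of these 6, 2 were called, Apoe and Fabp7, both lower at ZT20. Slc1a3 (log2 difference −0.68, no overlap) and Glul (−0.42, with overlap) were also lower at ZT20 but not called. Kcnj10 and Cdh19 differed the other way, by 0.21 and 0.38, with overlapping groups. The 5 plasma cell markers summed to 266.7 to 485.2 TPM and 496.2 to 933.2 TPM, with 1 called (Mzb1, lower at ZT20, adjusted p = 0.0432). Fewer cells of a type and less RNA per cell cannot be told apart in such bulk samples. Across all genes 2433 differed at a limma adjusted p under 0.05 (16.4% of those tested), 12.8% being higher at ZT20 and 3.61% lower. The log2 difference had a median of 0.23 over the tested genes.

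Dbp, the D-box activator best known as a clock output, was the only member that passed the test. The ZT20 libraries, in the order of their replicate numbers, had 0.624, 4.88, 2.61 and 1.998 TPM of Dbp. The ZT8 libraries had 9.43, 19.8 and 12.1 TPM. Every ZT8 library lay above every ZT20 library. The ZT20 mean was 2.53 ± 1.77 TPM (SD, n = 4), the ZT8 mean was 13.8 ± 5.40 TPM (SD, n = 3), and Dbp was therefore 5.45-fold higher at ZT8. On the scale of log2(TPM + 1), which understates changes of low genes, the difference ZT20 minus ZT8 was −2.15 with a standard error of 0.43 and a 95% interval from −3.14 to −1.17 (limma, adjusted p = 0.0154). Only 52 of the 14800 tested genes had a more negative difference. Without ZT8 replicate 2 the difference was −1.87 (adjusted p = 0.0303). The adjusted p rose above 0.05 without ZT20 replicate 3 (0.0521), without ZT20 replicate 4 (0.0532) and without both (0.191), at differences of −2.21, −2.12 and −2.20. The satellite glia sum, which is mostly Apoe, and the plasma cell sum were, like Dbp, higher in every ZT8 library. When a score of neuronal minus non-neuronal markers entered as a covariate, Dbp differed by −1.09 (limma unadjusted p = 0.116, adjusted p = 0.463). That score was 4.91 to 5.48 at ZT20 and 4.24 to 4.94 at ZT8, so it largely followed the group. Such a fit can hardly tell the score and the group apart. In the GENCODE M21 annotation 539 of the 2993 exonic bases of Dbp (18.0%) are shared with Sphk2 on the opposite strand. Whether the counting used strand is not given in the sources used here. Sphk2 spanned 33.8 to 53.2 TPM at ZT20 and 20.4 to 43.1 TPM at ZT8, so its means stood in the opposite order.

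Tef, the PAR-bZIP relative of Dbp, had 10.4, 11.7, 17.5 and 15.2 TPM in the ZT20 libraries and 10.9, 3.92 and 15.1 TPM in those of ZT8. The groups overlapped, and ZT8 replicate 2 was the low library. The log2 difference was 0.56 (95% interval −0.32 to 1.44, limma adjusted p = 0.332), and without ZT8 replicate 2 it was 0.062 (95% interval −0.49 to 0.62). Without ZT8 replicate 3 it was 0.92 (95% interval 0.030 to 1.80, unadjusted p = 0.0445, adjusted p = 0.139). Hlf, the remaining PAR-bZIP activator, was under the level needed for testing. It was at 0.589, 0.137, 0.217 and 0.211 TPM at ZT20, at 0.207 and 0.174 TPM in ZT8 replicates 1 and 3, and listed at 0 in ZT8 replicate 2 (two-sided exact permutation test over 35 splits, p = 0.314). The PAR-bZIP genes therefore stood at different levels per transcript length: at ZT20 the mean TPM of Tef was above that of Dbp, and both were above Hlf. At ZT8 the ranges of Dbp (9.43 to 19.8 TPM) and Tef (3.92 to 15.1 TPM) overlapped.

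Nfil3, the bZIP repressor of D-box elements, had 5.25, 7.83, 4.79 and 6.07 TPM in the ZT20 libraries. Those of ZT8 had 3.98, 5.55 and 4.74 TPM. The groups overlapped, although the mean at ZT20 (5.985 ± 1.339 TPM, SD, n = 4) was above that at ZT8 (4.76 ± 0.786 TPM, SD, n = 3). The log2 difference was 0.27 (95% interval −0.25 to 0.78, limma adjusted p = 0.423) and turned to −0.061 under quantile normalization. It was 0.072 under median-ratio scaling, 0.15 without ZT20 replicate 2 and 0.17 without ZT8 replicate 1.

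**Figure D1:**
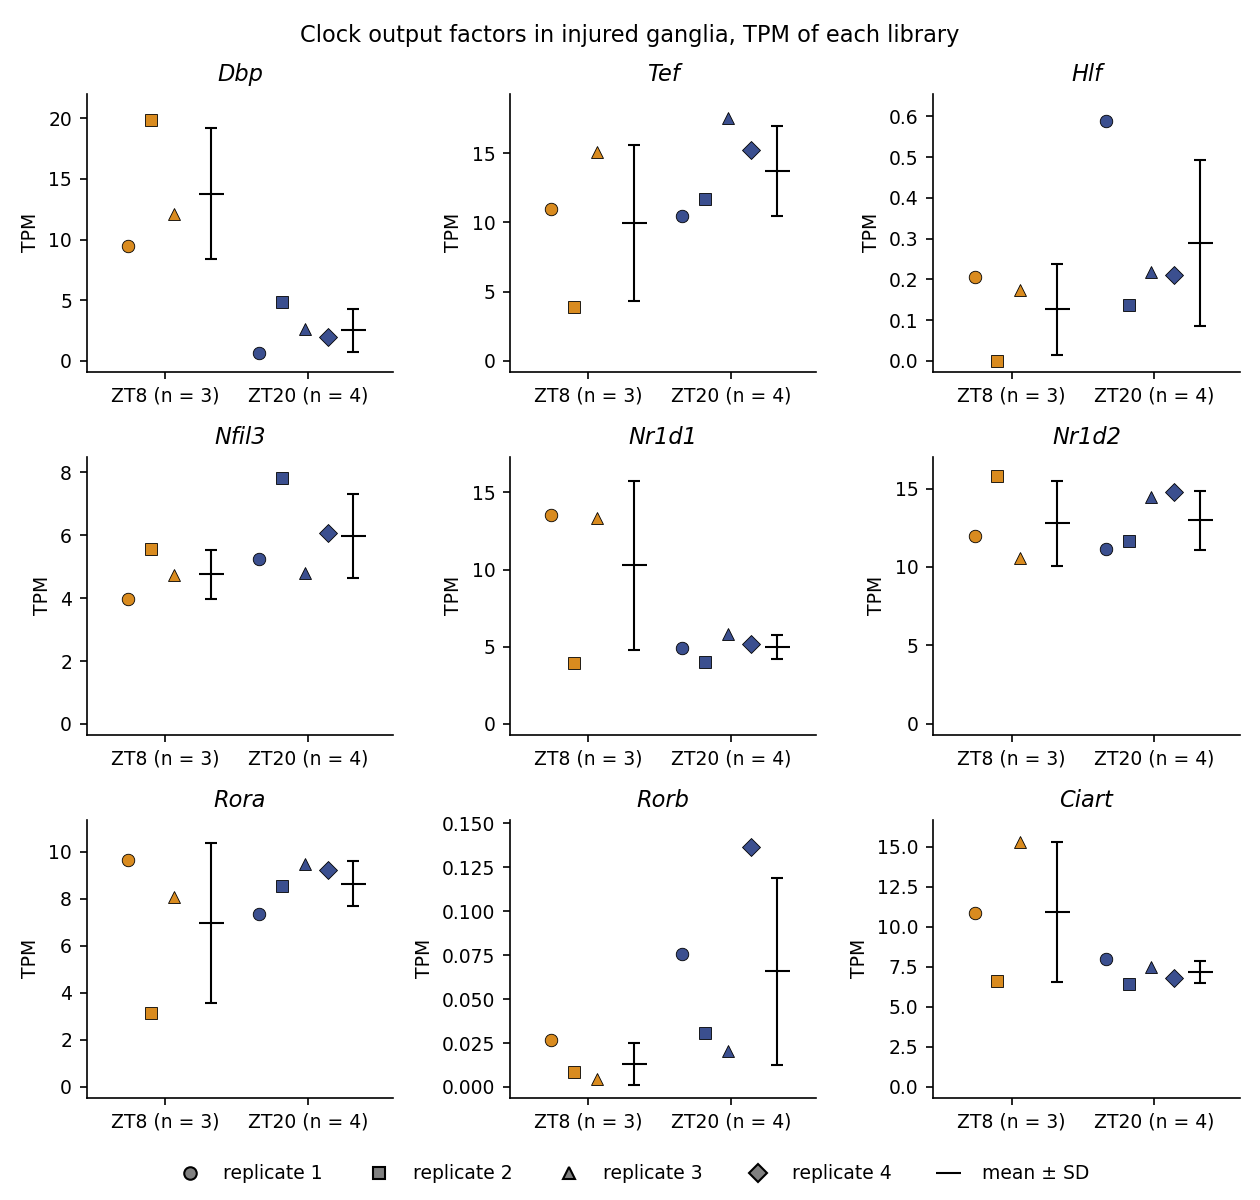
TPM of the 9 genes in each library, with ZT8 in orange and ZT20 in blue, a symbol for each replicate number and the mean ± SD beside the points. Each panel has its own linear axis. Dbp separates the groups, and ZT8 replicate 2 (square) lies away from the other ZT8 libraries for Nr1d1, Ciart, Tef and Rora.

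Nr1d1, which encodes REV-ERB alpha, spanned a narrow range at ZT20, with 4.94, 3.996, 5.83 and 5.16 TPM. At ZT8 it was at 13.5 TPM in replicate 1, 3.96 TPM in replicate 2 and 13.4 TPM in replicate 3. A pair of ZT8 libraries thus lay far above all ZT20 libraries, and ZT8 replicate 2 lay below them all. The mean at ZT8 (10.3 ± 5.48 TPM, SD, n = 3) was 2.06-fold that at ZT20 (4.98 ± 0.757 TPM, SD, n = 4). Over all libraries the log2 difference of −0.77 (95% interval −1.63 to 0.097) did not pass (limma adjusted p = 0.187). Without ZT8 replicate 2 it was −1.28 with a standard error of 0.18, and it passed (adjusted p = 0.00573). Without ZT8 replicate 1 it was −0.51 (adjusted p = 0.403) and without ZT8 replicate 3 also −0.51 (adjusted p = 0.398). It also passed with array weights, at −1.10 (adjusted p = 0.00925), a fit in which ZT8 replicate 2 had the lowest weight, 0.145, against 0.702 to 3.59 for the others. With the marker score covariate it was −1.55 (unadjusted p = 0.0300, adjusted p = 0.275). Of the exonic bases of Nr1d1, 263 of 3077 (8.55%) are shared with Thra on the opposite strand. Thra, a thyroid hormone receptor gene, rose at ZT20, from 34.3 to 42.2 TPM across the ZT8 libraries to 59.9 to 65.6 TPM (log2 difference 0.68, limma adjusted p = 0.0115), against the direction of Nr1d1.

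Nr1d2, which encodes REV-ERB beta, was at 11.1, 11.6, 14.4 and 14.8 TPM at ZT20 and 11.98, 15.8 and 10.6 TPM at ZT8. The groups overlapped throughout, and the order of the libraries was not that of Nr1d1, since ZT8 replicate 2 was the highest library for Nr1d2. The log2 difference was 0.029, and its 95% interval from −0.42 to 0.48 leaves room for differences of that size in either direction (limma adjusted p = 0.929). Its sign depended on the scaling: the difference was −0.19 under median-ratio scaling and −0.27 under quantile normalization. At ZT20 every library had more Nr1d2 than Nr1d1 per transcript length.

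Rora encodes a ROR activator that is widely expressed. It was at 7.34, 8.54, 9.49 and 9.22 TPM at ZT20. At ZT8 it was at 9.67, 3.14 and 8.10 TPM, so that ZT8 replicate 2 was low and the others lay within or just above the ZT20 range. The log2 difference was 0.38 over all libraries (95% interval −0.35 to 1.11, limma adjusted p = 0.425) and −0.036 without ZT8 replicate 2 (95% interval −0.43 to 0.36). Rorb, a ROR gene known from retina and brain, was near the floor of the table: it was at 0.0202 to 0.137 TPM at ZT20 and 0.00441 to 0.0269 TPM at ZT8 (two-sided exact permutation p = 0.143). Rora was above Rorb in every library.

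Ciart, the repressor of BMAL1 and CLOCK, was at 7.99, 6.42, 7.51 and 6.81 TPM at ZT20 and at 10.9, 6.61 and 15.3 TPM at ZT8. ZT8 replicates 1 and 3 were above all ZT20 libraries and ZT8 replicate 2 was within their range, whereas for Nr1d1 it lay just below the lowest of them. The log2 difference of −0.48 (95% interval −1.08 to 0.12) did not pass (limma adjusted p = 0.232). Without ZT8 replicate 2 it was −0.77 with a standard error of 0.19 and passed (adjusted p = 0.0286), and with array weights it was −0.66 (adjusted p = 0.0319). Without ZT8 replicate 3, the highest library, it was −0.22 (adjusted p = 0.544), and with the marker score covariate −1.18 (unadjusted p = 0.0110, adjusted p = 0.191). Over the 7 libraries Pearson's r between Ciart and Nr1d1 in log2(TPM + 1) was 0.93, which ranked 49 among the 14799 other tested genes compared with Nr1d1. That r is a description over libraries that share their preparation and group, and ZT8 replicate 2 contributes to it.

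With all libraries 1 of the 7 tested members was called (Dbp, lower at ZT20), against 16.4% of all tested genes called in either direction and 3.61% called lower. Groups that did not overlap were found for 1 of 7 (Dbp), against 33.2% of all genes, 24.5% with ZT20 higher and 8.72% with ZT20 lower. A count of 1 among 7 genes is under the share of all genes over both directions and above it for the lower direction alone, and it rests on a single gene. Without ZT8 replicate 2 the calls were Dbp, Nr1d1 and Ciart, 3 of 7, all lower at ZT20, where 20.6% of all genes were called, 4.6% lower and 16% higher. Array weights gave the same 3 calls, with 26.3% of all genes called and 6.2% called lower. The order of the members by TPM within a library also differed: Tef and Nr1d2 held the 2 highest places in all 4 ZT20 libraries, and the highest place at ZT8 was held by Nr1d1, Dbp and Ciart in replicates 1, 2 and 3. ZT8 replicate 2 was chosen for this account because of its distance from the other libraries over all genes, with the values of the members already known. Differences also varied with transcript length over all genes, and the members differ in length. When the tested genes were placed in 10 groups of equal size by their longest transcript, the group that holds Dbp, Ciart and Nfil3 had a median log2 difference of −0.017. That median was 0.17 for the group of Nr1d1, 0.47 for that of Tef and Nr1d2, and 0.69 for that of Rora. After correction of each library for length and GC content the difference of Dbp was −1.98 (limma adjusted p = 0.0315), that of Nr1d1 −0.76 and that of Ciart −0.25.

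**Figure D2:**
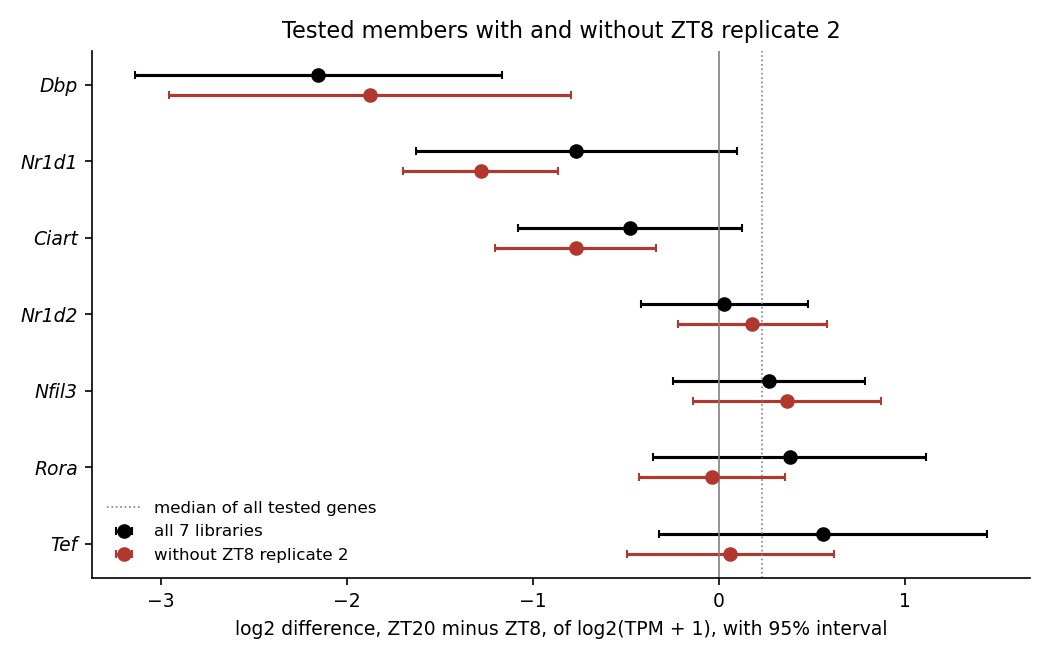
Log2 difference (ZT20 minus ZT8) of the 7 tested members with its 95% interval from limma, over all 7 libraries (black) and without ZT8 replicate 2 (red). The dotted line is the median of all tested genes, 0.23. The intervals of Nr1d1 and Ciart leave 0 when that library is left out, while those of Tef, Rora, Nfil3 and Nr1d2 include 0 in both fits.

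Ratios of TPM within a library do not depend on the scaling between libraries, and some of them set activators against repressors of the same element. The genes of a ratio can still differ in transcript length: the length groups of Nr1d1 and Rora had median log2 differences of 0.17 and 0.69. The ratio of Dbp to Nfil3, the opposing factors at D-box elements, ran through 0.119, 0.623, 0.546 and 0.329 over the ZT20 libraries. The ZT8 libraries gave 2.37, 3.57 and 2.56. Nfil3 was therefore above Dbp in all 4 ZT20 libraries and below it in all 3 ZT8 libraries. The ratio of Tef to Nfil3 showed no such turn: that of Nfil3 to Tef was 0.273 to 0.670 at ZT20 and 0.314 to 1.42 at ZT8, with ZT8 replicate 2 the highest.

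For the factors that oppose each other at RORE elements, the ratio of Nr1d1 to Rora was 0.672, 0.468, 0.614 and 0.560 at ZT20 and 1.40, 1.26 and 1.65 at ZT8. Here ZT8 replicate 2, in which both genes were low, stood with the other ZT8 libraries. The ratio of Nr1d2 to Rora overlapped, at 1.36 to 1.604 at ZT20 and 1.24 to 5.03 at ZT8. The ratio of Nr1d1 to Nr1d2 was 0.343 to 0.444 at ZT20, 1.13 and 1.26 in ZT8 replicates 1 and 3, and 0.251 in ZT8 replicate 2. Against Arntl, the shared target, Nr1d1 stood at 1.47 to 2.44 at ZT20 and 2.56 to 14.0 at ZT8, and Ciart at 2.33 to 3.95 and 4.27 to 16.1. The ratios were chosen with the values known and carry no test.

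**Figure D3:**
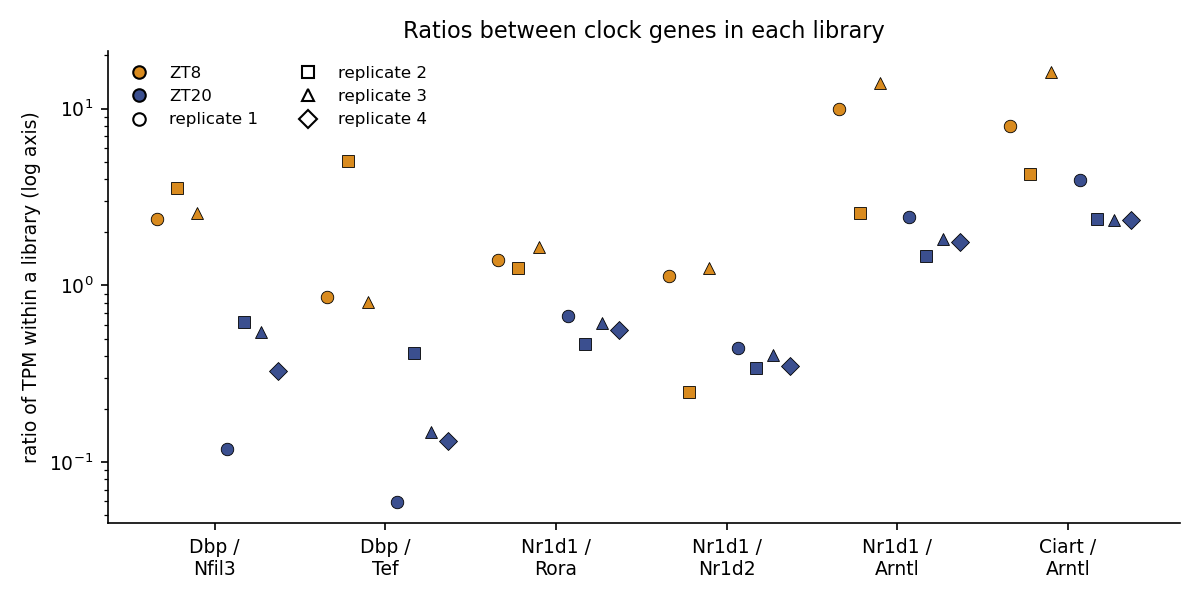
Ratio of the TPM of 2 clock genes within each library, on a log axis, with ZT8 in orange and ZT20 in blue and a symbol for each replicate number. Dbp to Nfil3 is 2.37 to 3.57 at ZT8 and 0.119 to 0.623 at ZT20, and of the 6 ratios drawn only Nr1d1 to Nr1d2 overlaps, through ZT8 replicate 2 (square).

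Genes that these factors act on, or that act on them, were read from 6 lists, which hold 45 distinct genes, 39 of them tested. Of the 32 tested genes that are not members, 11 were higher and 1 lower at ZT20, against 12.8% and 3.61% of all tested genes, and their median log2 difference was 0.70 beside 0.23 for all genes. With the members on these lists included, 11 of the 39 were higher and 2 lower, and this count depended on the setting. Median-ratio scaling gave 6 and 3, correction for length and GC content 3 and 1, and the marker covariate 1 and 0, in the same order. Without ZT20 replicate 1, 2, 3 or 4 the total was 7, 8, 2 or 4. Among RORE-driven genes, Arntl was at 2.02, 2.71, 3.19 and 2.91 TPM at ZT20 and 1.36, 1.55 and 0.953 TPM at ZT8. Every ZT20 library lay above every ZT8 library, the reverse of the order seen for Dbp, yet the difference of 0.70 did not pass (limma adjusted p = 0.0809). Groups apart in that direction were found for 24.5% of all tested genes, and Arntl was low, at a mean of 2.10 TPM over all libraries. Clock, the partner of BMAL1, did not overlap either, at 6.63 to 9.35 TPM and 1.92 to 4.87 TPM (0.95, adjusted p = 0.0545). Both passed without ZT8 replicate 2, at 0.78 (adjusted p = 0.0447) and 1.14 (adjusted p = 0.0306). Clock, a gene of the longest transcripts, was at 0.57 after the length and GC correction (adjusted p = 0.167) and at 0.63 without ZT8 replicate 3 (adjusted p = 0.106). Cry1, a repressor under RORE control, was at 7.73 to 13.6 TPM and 4.45 to 10.6 TPM (0.42, adjusted p = 0.334). Its difference was 0.12 without ZT8 replicate 2 and 0.66 without ZT8 replicate 1. Npas2, the relative of Clock, was under the level tested, at 0.122 to 0.977 TPM and 0 to 0.285 TPM. The RORE-driven list of 8 had 6 tested genes, 0 of them called higher and 1 lower: Fabp7, the brain fatty acid binding protein, was at 472 to 518 TPM at ZT20 and 617 to 709 TPM at ZT8 (−0.39, limma adjusted p = 0.0327). Of the 6, 3 had an unadjusted p under 0.05. Fabp7 lost its call without a filter, without the intensity trend (where Arntl was called instead), under quantile normalization, the replicate block, the marker covariate and the length and GC correction, and without any 1 of the ZT20 replicates or ZT8 replicate 1. Fabp7 is also 1 of the 6 satellite glia markers, whose sum was higher in every ZT8 library, and the part of that cell type in its difference was not tested.

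Of 10 D-box-driven genes 9 were tested, and 2 rose at ZT20, beside 12.8% of all tested genes. Pdxk, the pyridoxal kinase known as a target of the PAR-bZIP factors in brain, was at 13.8 to 16.8 TPM at ZT20 and 6.14 to 10.7 TPM at ZT8 (log2 difference 0.76, limma adjusted p = 0.0403). Alas1, the entry enzyme of haem synthesis, was at 181 to 225 TPM and 101 to 149 TPM (0.61, adjusted p = 0.0342). Both stood higher where Dbp stood lower. In GENCODE M21 the antisense gene 4921516A02Rik shares 39.0% of the exonic bases of Pdxk and 4930500F10Rik shares 7.53% of those of Alas1, so these values are uncertain. Neither kept its call under median-ratio scaling, the replicate block, the marker covariate or the length and GC correction, without a filter, or without any 1 of the ZT20 replicates or ZT8 replicate 3. The members of the Per family, which carry E-box and D-box elements, did not pass: Per1 differed by 0.18, Per2 by 0.90 and Per3 by 0.30 (adjusted p = 0.700, 0.114 and 0.539). Per2 was at 0.58 without ZT8 replicate 2, 0.43 under quantile normalization, 0.28 with the marker covariate and 1.87 with a pseudocount of 0.1. Per3 ranged from 0.10 (without ZT20 replicate 2) to 0.49 (without ZT20 replicate 3) over the fits without 1 library. Per1 and Per3 turned negative under quantile normalization and under the length and GC correction. In the E-box-driven list 13 of 14 genes were tested. Beside 3.61% of all tested genes lower and 12.8% higher, 1 was lower (Dbp) and 1 higher at ZT20. The latter was Bhlhe41, a clock repressor, at 23.8 to 47.3 TPM against 4.93 to 11.8 TPM (1.97, adjusted p = 0.0101), with 19.0% of its exonic bases shared with Gm43909 on the opposite strand. Dbp and Bhlhe41, listed together as E-box-driven, therefore lay near opposite ends of the range of differences. The difference was positive for 10 of the 13, as it was for 9821 of all 14800 tested genes.

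REV-ERB receptors repress through a corepressor complex. Of the 6 genes of the corepressor complex, all tested, 4 rose at ZT20 and 0 fell, with a median log2 difference of 0.89, beside 12.8% of all tested genes higher and their median of 0.23. The count was 1 without ZT20 replicate 3, 2 without ZT20 replicate 4 and with the replicate block, and 0 with the marker covariate (3 at an unadjusted p under 0.05) and without both ZT20 replicates 3 and 4 (4 at an unadjusted p under 0.05). Ncor1, the corepressor that REV-ERB binds, was at 32.9 to 36.0 TPM at ZT20 and 16.6 to 20.2 TPM at ZT8 (0.91, limma adjusted p = 0.00673). Tbl1x differed by 0.86 and Tbl1xr1 by 1.01, with adjusted p-values of 0.0105 and 0.0132. Tbl1x lies on the X chromosome, and the ZT20 libraries differed in sex-linked transcripts. Hdac3, the deacetylase of the complex, differed by 0.034 with overlapping groups (adjusted p = 0.883), and Gps2 by 0.31 (adjusted p = 0.161). Of the 7 ROR coactivators, 3 rose and 0 fell: Crebbp by 1.19, Ncoa2 by 0.89 and Ncoa1 by 0.77 (adjusted p = 0.0158, 0.0259 and 0.0337). That count was 1 (Crebbp) under median-ratio scaling, with the replicate block, without a filter, and without ZT20 replicate 1, ZT20 replicate 2 or ZT8 replicate 1. It was 0 under quantile normalization, with the marker covariate and without ZT20 replicate 3 or 4, where 3 or 4 of the 7 had an unadjusted p under 0.05. The called genes of both lists are among the 2 groups of longest transcripts, whose median differences over all genes were 0.56 and 0.69. After the length and GC correction Tbl1x and Gps2 were the called genes of the corepressor list, and 0 of the 7 coactivators passed, with 2 at an unadjusted p under 0.05.

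**Figure D4:**
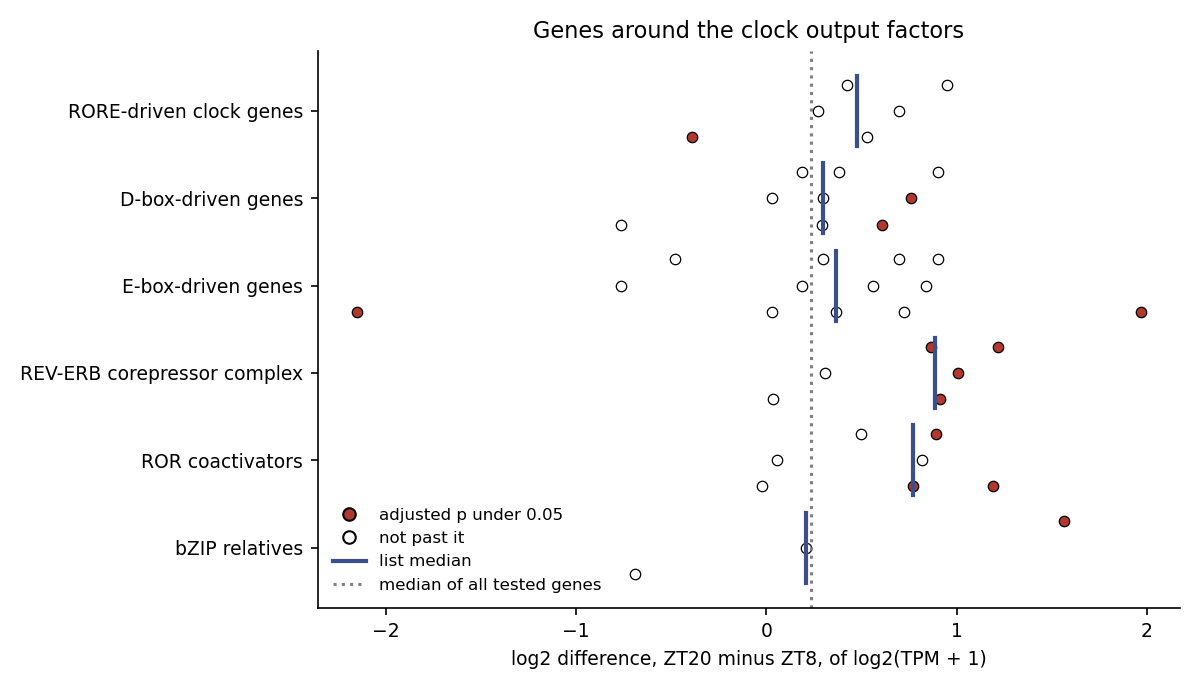
Log2 difference (ZT20 minus ZT8) of each tested gene in the 6 lists, filled where the limma adjusted p was under 0.05, with the list median as a bar and the median of all tested genes, 0.23, as a dotted line. Vertical spread within a list only separates the points. The corepressor and coactivator medians, 0.89 and 0.77, lie farthest to the right, and Dbp, at −2.15, farthest to the left.

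The genes with the pattern most like that of a member were found by Pearson's r of log2(TPM + 1) over the 7 libraries, which share preparation and group, and the values are a description. For Dbp these were Slc25a33 (0.99), a mitochondrial carrier gene, Ppp2r3c (0.99) and Ngb (0.99), which encodes neuroglobin. Slc25a33 was at 14.2 to 39.4 TPM at ZT20 and 48.7 to 70.3 TPM at ZT8. For Nr1d1 they were Gpr37l1, Chmp2b and Nubp1, each with an r of 0.98, and Gpr37l1, a receptor gene known from glia, was at 22.4 to 31.6 TPM and 25.5 to 51.3 TPM. For Ciart they were Igkv6-17, Pebp1 and Cript (0.99, 0.98 and 0.98). Igkv6-17 is an immunoglobulin segment from a family with shared sequence, so its value is uncertain. For Nr1d2 they were Npas3, Cdh10 and Vstm2a (0.99, 0.98 and 0.97), and for Nfil3 Tmem238l, 4930430F08Rik and Itpr1 (0.95, 0.95 and 0.94). For Tef they were Septin8, A930004D18Rik and Cdkal1, each at 0.99, and for Rora Tom1l1, Chst14 and P2rx4 (0.995, 0.995 and 0.994). None of these neighbours was a member. Among members, Tef and Rora had an r of 0.92, Dbp and Nr1d1 0.34, and Dbp and Tef −0.52. Rora ranked only 471 among the 14799 other tested genes compared with Tef, and both genes were lowest in ZT8 replicate 2.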

How the data were processed

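Transcript abundance was deposited by the authors as TPM, 1 column per library, for 54309 genes, of which 1281 had no symbol. Per the submitters' processing notes, FastQC 0.11.9, Trim Galore 0.6.6, Salmon 1.6.0, DESeq2 1.34.0 and the build GRCm39 were used, with no role given. The annotation release, the strand setting and any scaling between libraries are not given in the sources used here. TPM keeps no sequencing depth, so the counting error of each value is unknown. All 7 columns matched a sample title, and 0 columns were left unused.

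Values were analysed as log2(TPM + 1). Those with a mean of 1 TPM or more were fitted with limma (version 3.58.1, intensity trend, R 4.3.3) over both groups without covariates, with two-sided tests and Benjamini-Hochberg adjustment over 14800 genes. The procedure was tested on simulated data. Genes under that level were compared by an exact permutation test, whose smallest p is 0.0286. Length, GC content and overlaps came from GENCODE M21 (14745 of the tested genes had length and GC, 99.6%). Named genes are the 9 members, the called genes of each list with Arntl, Clock, Npas2, Cry1 and Per1 to Per3, up to 4 other listed genes by smallest p, and the 3 most similar genes per member. Thra and Sphk2, which overlap members, were added after their values were seen. Some listed genes enter the counts but are not reported here by name. The members, lists and alternatives were chosen with earlier results of these data known. Tables and figures used Python 3.11.15, pandas 2.3.3 and matplotlib 3.10.9.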

Additional observations from a re-analysis of the deposited data

How the results depend on the processing

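The alternatives covered the pseudocount, the filter, the scaling, the variance model, covariates, a length and GC correction, the threshold and the libraries. The cause of each change given here was not tested. The alternative filters, the fit without the intensity trend and the threshold of 0.10 leave the difference of a gene as it is, so they do not test its sign. The threshold of 0.10 also uses the reported fit, so a gene called at 0.05 passes it by construction. Dbp had a negative difference in all 20 alternatives, from −3.13 to −1.09, and passed in 14. Nr1d1 and Ciart were negative in all 20 as well, from −1.55 to −0.51 and from −1.18 to −0.22, and each passed in 2.

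The number of members past the threshold, of all genes and of listed genes was 1, 2433 and 13 in the fit reported. It was 0, 1178 and 6 without a filter (6432 genes had an unadjusted p under 0.05, 1 of them a member, and the adjusted p of Dbp was 0.0514). Array weights gave 3, 3899 and 20, and the marker score covariate 0, 117 and 1 (2 members had an unadjusted p under 0.05). A threshold of 0.10 gave 4079 genes. Quantile normalization gave 7 listed genes and the length and GC correction 4. Median-ratio scaling gave 1128 genes higher and 1160 lower and moved the median of all genes to 0.033, and quantile normalization gave 1023 and 814 and moved it to 0.0046. Without ZT20 replicates 3 and 4, limma called 0 members, 0 genes and 0 listed genes, with 2425 genes and 1 member at an unadjusted p under 0.05. Without ZT20 replicates 2, 3 and 4, an alternative added after the data were seen that leaves 1 ZT20 library, assumed to vary like the ZT8 group, the counts were again 0, 0 and 0, with 1133 genes and 1 member at an unadjusted p under 0.05. Over the fits without 1 replicate, members ran from 0 to 3, all genes from 624 (without ZT20 replicate 3) to 3055 (without ZT8 replicate 2) and listed genes from 2 to 17. Those without ZT20 replicates 1 and 4 gave 1125 and 819 genes.

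The replicate numbers belong to samples whose deviations from the group means correlated at −0.014, 0.15 and 0.083, so they were not taken as pairs. With the number as a replicate block 1174 genes, 6 listed genes and 1 member passed (Dbp, −2.12, limma adjusted p = 0.0234).

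Signs turned as follows. Tef was −0.24 with the marker score covariate. Nfil3 was −0.061 under quantile normalization. Rora was −0.0074 with the length and GC correction and from −0.036 (without ZT8 replicate 2) to 0.65 over the fits without 1 replicate. Nr1d2 was −0.19 under median-ratio scaling, −0.27 after quantile normalization, −0.032 with the replicate block and −0.12 with the length and GC correction, −0.14 and −0.17 without ZT20 replicates 3 and 4 and without 2, 3 and 4, and between −0.087 and 0.18 over the fits without 1 replicate, with −0.021, −0.032 and −0.0055 among them. Per1 was −0.13 after quantile normalization, −0.72 with the marker covariate, −0.14 with the length and GC correction, and from −0.026 (without ZT8 replicate 2) to 0.53 over the fits without 1 replicate. Per3 was −0.0079 after quantile normalization and −0.079 with the length and GC correction.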

Other observations

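The C/EBP group of bZIP factors binds sites similar to the D-box, and 3 of its 5 listed genes were tested. Cebpg, a partner of other bZIP factors, rose at ZT20. The ZT20 libraries had 15.9, 33.7, 12.5 and 9.50 TPM and the ZT8 libraries 3.92, 6.68 and 4.01 TPM. ZT20 minus ZT8 was 1.56 on the log2 scale (standard error 0.39), and limma gave an adjusted p of 0.0309. The groups did not overlap, as for 33.2% of all tested genes. Cebpd, an acute-phase transcription factor gene, stood in the opposite order without overlap, at 8.31, 10.7, 13.8 and 15.4 TPM at ZT20 and 24.1, 16.8 and 18.4 TPM at ZT8, and did not pass (−0.69, limma adjusted p = 0.0775). Spidr, on the opposite strand, shares 15.0% of its exonic bases. Ddit3, which encodes the stress factor CHOP, was at 60.9 to 72.4 TPM and 54.3 to 63.6 TPM (0.21, limma adjusted p = 0.266). Cebpa and Cebpb were under the level tested. Median-ratio scaling and quantile normalization reversed which of the pair passed: Cebpd was called lower and Cebpg was not called. Cebpg also lost its call without a filter, with the marker covariate, and without ZT20 replicate 1, ZT20 replicate 3, ZT8 replicate 1 or ZT8 replicate 3. After the length and GC correction 0 of the 3 passed, and all 3 had an unadjusted p under 0.05.

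Hlf in ZT20 replicate 1 (0.589 TPM) was set off from the other ZT20 libraries by a share of 0.822 of the range of the group, just under Dixon's critical value for 4 samples. Of 16 clock genes checked in this way 0 exceeded it.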
